A study of Mus musculus with 4 samples.

Results

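The genes described here encode the main glucose transporter of most cells and 9 enzymes of glycolysis, which were chosen by symbol as glycolytic genes that the hypoxia-inducible factor HIF1 can regulate. They are *Slc2a1*, *Hk1*, *Hk2*, *Hk3*, *Pfkl*, *Pfkp*, *Aldoa*, *Pgk1*, *Pkm* and *Ldha*. The 10 symbols matched 11 of the 54532 genes in the count table, because *Aldoa* is carried by a pair of identifiers, and all 10 symbols had enough counts to be tested among 16451 genes. RNA sequencing had been performed on tumor-associated macrophages (TAMs) from tumors of NB9464, a murine neuroblastoma line with amplified *MYCN*. NB9464 cells were implanted, no treatment was given, and tumors were collected on day 40. Hosts were on a C57BL/6 background and 4 to 6 weeks old at injection. The paper describes its knockout mice as a cross of floxed *Syk* with a Cre recombinase driven by the lysozyme M gene. This Cre acts in myeloid cells and leaves *Syk* intact in other cells of the host and in the implanted tumor cells. Wild-type mice were the controls, and which alleles these carried is not given in the sources used here. The sample titles read Macrophage SYK WT and Macrophage SYK KO, and so name the macrophages rather than the host. TAMs were pulled from the tumors with magnetic beads against CD11b and F4/80, a bead isolation rather than a gated sort. There were 2 libraries per genotype, M7 and M8 labelled SYK WT and M9 and M10 labelled SYK KO.

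Glycolysis turns glucose into pyruvate in the cytosol. Glucose enters through facilitative transporters such as the product of *Slc2a1* (GLUT1), is trapped by a hexokinase, is committed by phosphofructokinase, is split by aldolase, yields ATP at phosphoglycerate kinase and pyruvate kinase, and ends as lactate when lactate dehydrogenase regenerates NAD+. In macrophages the pathway is known for rising with inflammatory activation and with low oxygen, and HIF1 is a textbook activator of many of its genes.

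Total counts ran from 20755886 to 23518045 per library, so that 3 counts, the smallest signal taken as detectable, corresponded to between 0.109 and 0.163 CPM, the counts of a gene relative to the size of its library, scaled by the trimmed mean of M values (TMM). Floors and Wilson intervals cover counting error only, whereas the intervals of log2 fold changes include the spread between libraries. *Syk*, the deleted gene, went against the labels, with 27.9 and 23.2 CPM in the libraries labelled SYK WT and 196 and 160 CPM in the libraries labelled SYK KO, a log2 fold change of 2.80 (SE 0.194, edgeR quasi-likelihood test with Benjamini-Hochberg adjusted p = 0.000674). Floxed exons cannot be told from the rest of *Syk* in gene counts, and every direction is therefore given for the libraries as labelled. Markers of the isolated cell type differed between the genotypes, as 10 macrophage markers summed to 1294 and 917 CPM in the libraries labelled SYK WT against 10373 and 6225 CPM in the libraries labelled SYK KO, and all 10 were higher. All 6 pan-leukocyte markers were also higher (259 to 349 CPM summed against 3025 to 4222 CPM), as were the 6 of 8 neutrophil markers that could be tested (29.7 to 42.7 CPM against 233 to 465 CPM), whereas 5 of 8 fibroblast markers (12612 and 14509 CPM against 4115 and 5031 CPM) and the 7 of 8 erythroid markers tested (2548 and 7084 CPM against 222 and 367 CPM) were lower. Of the other cell types, 2 of 8 endothelial and 2 of 4 tested skeletal muscle markers were lower. Higher were 5 of 8 T cell, 1 of 3 tested B cell, 1 of 1 tested adipocyte and 1 of 4 tested tumor cell markers. All these marker counts stand beside 22.7% called higher and 16.7% lower over all genes tested. Some calls rested on few counts, such as *Cd3d* with 3 and 1 in M7 and M8 and 14 and 11 in M9 and M10. The adipocyte marker tested was *Fabp4*, whereas *Adipoq* and *Lep* had 0 counts in M9 and M10. Tumor cell markers were mixed, with *Th* and *Dbh* at 0 counts in all 4 libraries, *Hand2* at 262 and 301 CPM in M7 and M8 and 178 and 286 CPM in M9 and M10, *Ddc* at 4.56 to 7.51 CPM and *Mycn* at 21.4 to 43.5 CPM. Mitochondrial genes took 2.20% and 2.34% of counts in M7 and M8, 6.00% in M9 and 15.9% in M10. The labels name bone marrow-derived macrophages in the RNA extraction step, and the title of the series names an adoptive transfer experiment, so the source of the RNA is not certain. Nothing states that the libraries of a genotype came from separate mice, and p-values measure only the spread between these libraries.

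With TMM scaling, the libraries labelled SYK KO had higher levels of 5 of the 10 genes, 0 were lower and 5 did not pass an adjusted p of 0.05. The 5 that passed were *Hk3*, *Aldoa*, *Ldha*, *Pgk1* and *Hk1*. Over all 16451 genes tested, 22.7% were called higher, 16.7% lower and 39.4% in either direction. The median log2 fold change of the 10 genes was 0.68, against 0.02 over all genes tested. Both libraries labelled SYK KO lay above both labelled SYK WT for 8 of the 10 genes, against 38% of all genes tested, and lay below both for 0 of 10, against 37.2%. The exceptions were *Slc2a1* and *Pfkl*, for which the groups overlapped. The number of calls changed when single libraries were left out. Only *Hk3* passed without M7 or without M8, although the median log2 fold change of the 10 genes was then 0.63 and 0.72, close to the 0.68 with all libraries. Without M9, 4 genes passed (not *Pgk1*) with a median of 0.46, and without M10 all 10 passed with a median of 0.81. The direction also rested on how the libraries were scaled. With the 10 macrophage markers as the scale, 0 genes were called higher and 9 lower (all but *Hk3*), and likewise with the 6 pan-leukocyte markers. Over all genes tested, 86.3% were called lower with the macrophage markers and 92.8% with the pan-leukocyte markers. In bulk RNA, fewer cells of a type and less RNA per cell cannot be told apart, and the part of the marker differences given above in the glycolytic values was not tested beyond these scalings.

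**Figure D1:**
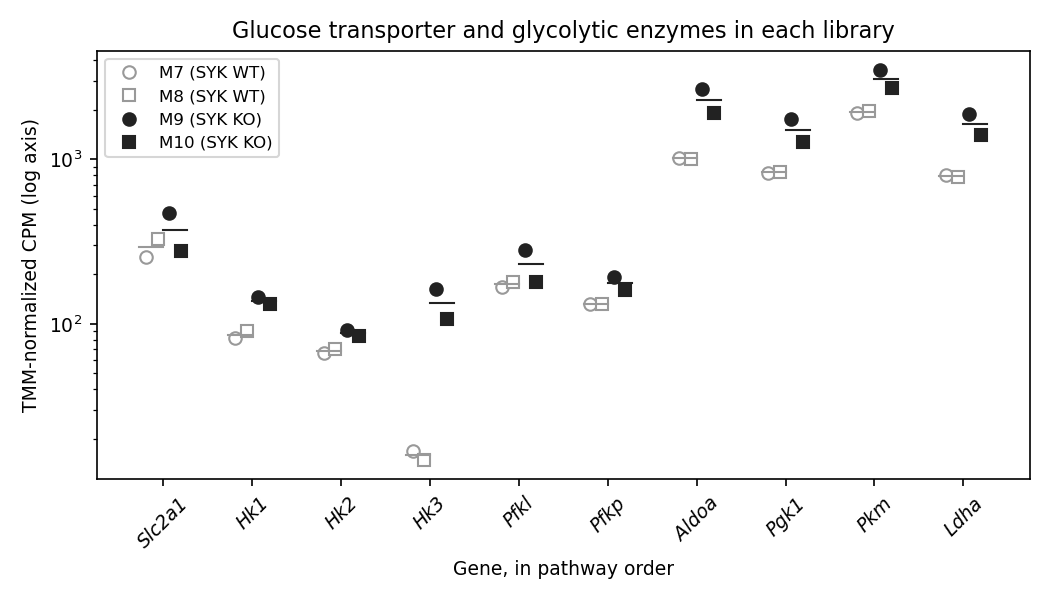
TMM-normalized CPM (log axis) of the glucose transporter and 9 glycolytic enzymes in each library, with open symbols for the libraries labelled SYK WT (M7, M8), filled symbols for those labelled SYK KO (M9, M10) and a line at each group mean. M9 was the highest library for every gene and M10 lay below M8 for *Slc2a1* and *Pfkl*. *Hk3* showed the widest gap (14.9 and 16.9 against 107 and 162 CPM). Scaled to macrophage or pan-leukocyte markers, 9 of the genes were lower instead, as were 86.3% and 92.8% of all genes tested.

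The start regions of these genes were read for ACGTG, a form of the core of the hypoxia response element, because the genes were chosen as possible HIF1 targets. HIF complexes also recognize the core with G as its first letter, GCGTG, which was not searched. Windows of 250 bases before each RefSeq start (GRCm38.p6) were searched for ACGTG on both strands. All 10 genes matched RefSeq, with 15 windows, some of them overlapping alternative starts of a gene, and 7 of the 10 genes held ACGTG in at least 1 window. In comparison, 18.5% of 27025 genes and 16.6% of 32851 windows held it, and 6.02% of windows held the palindrome CACGTG, which contains ACGTG on both strands. Of the 15 windows of the 10 genes, 8 held ACGTG. For the transporter and the 4 genes with the largest log2 fold changes, 1 window that holds the letters follows, each 5′ to 3′ on the strand of the gene, with ACGTG or its reverse complement CACGT in capitals.
Slc2a1 (chr4:119108495-119108744, plus strand): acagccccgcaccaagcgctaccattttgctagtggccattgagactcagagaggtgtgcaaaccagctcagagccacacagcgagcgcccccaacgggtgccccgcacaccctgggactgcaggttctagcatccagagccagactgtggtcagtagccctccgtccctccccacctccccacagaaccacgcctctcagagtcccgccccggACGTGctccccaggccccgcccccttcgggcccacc
Hk3 (chr13:55021386-55021635, minus strand): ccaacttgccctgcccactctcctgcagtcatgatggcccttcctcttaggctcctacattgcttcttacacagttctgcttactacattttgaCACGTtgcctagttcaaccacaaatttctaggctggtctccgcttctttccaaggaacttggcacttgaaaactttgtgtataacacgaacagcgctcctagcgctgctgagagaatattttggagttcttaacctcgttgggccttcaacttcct
Aldoa (chr7:126799255-126799504, minus strand): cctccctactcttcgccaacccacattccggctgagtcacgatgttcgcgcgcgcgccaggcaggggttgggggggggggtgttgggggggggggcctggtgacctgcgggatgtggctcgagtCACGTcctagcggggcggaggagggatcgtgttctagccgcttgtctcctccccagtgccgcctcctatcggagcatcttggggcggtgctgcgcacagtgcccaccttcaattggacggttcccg
Ldha (chr7:46845554-46845803, plus strand): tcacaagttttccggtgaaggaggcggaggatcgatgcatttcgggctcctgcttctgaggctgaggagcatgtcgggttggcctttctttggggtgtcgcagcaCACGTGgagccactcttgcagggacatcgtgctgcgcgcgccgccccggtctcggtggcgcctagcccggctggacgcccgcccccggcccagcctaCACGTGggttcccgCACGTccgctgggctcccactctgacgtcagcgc
Pgk1 (chrX:106186850-106187099, plus strand): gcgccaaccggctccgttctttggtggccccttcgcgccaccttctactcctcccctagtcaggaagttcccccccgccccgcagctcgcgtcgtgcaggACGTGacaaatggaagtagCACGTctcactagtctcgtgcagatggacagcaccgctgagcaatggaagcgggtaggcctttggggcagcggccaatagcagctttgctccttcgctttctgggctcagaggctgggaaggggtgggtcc
The match of *Slc2a1* began 36 bases before the start, that of *Hk3* 156 bases before it and that of *Aldoa* 126 bases before the start of the window shown. A further window of *Aldoa* (chr7:126800448-126800697) and of *Ldha* (chr7:46846832-46847081), not printed, held none, and the third *Aldoa* window overlapped the printed one and held the same match. *Pgk1* held a match on each strand, 150 and 131 bases before its start, and *Ldha* held 2 copies of CACGTG and a further CACGT at 34 bases. *Hk2* had matches at 226 and 52 bases and *Pkm* had 1 at 75 bases in the second of its windows. *Hk1*, *Pfkl* and *Pfkp* held no ACGTG, and whether they held GCGTG was not counted. The presence of ACGTG alone did not separate the genes that passed the test from the rest. Among the 5 that passed, *Hk1* lacked it, and among the 5 that did not, *Slc2a1*, *Hk2* and *Pkm* held it. A match is only a description of these windows, and no binding was measured.

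Glucose entry was read from *Slc2a1* (ENSMUSG00000028645, chromosome 4, 119108711 to 119137983 on GRCm38), a protein-coding gene that encodes the basal transporter GLUT1. It measured 255 and 328 CPM in M7 and M8 and 472 and 277 CPM in M9 and M10. The groups overlapped, with M10 between M7 and M8. The log2 fold change was 0.36 (SE 0.288, 95% interval from -0.33 to 1.05, edgeR adjusted p = 0.353), and the interval held values on both sides of 0. It changed sign without M9 (-0.16) and with library size as the scale (-0.15). *Slc2a3*, the high-affinity transporter GLUT3, was lower under each scaling tried and measured 62.6 and 87.1 CPM in M7 and M8 and 35.1 and 34.3 CPM in M9 and M10 (log2 fold change -1.11, SE 0.20, adjusted p = 0.0078). Among the counts of *Slc2a1*, *Slc2a3* and *Slc2a6* together, *Slc2a1* took 77.0% and 76.8% in M7 and M8 and 89.9% and 84.0% in M9 and M10, and these shares did not overlap between the genotypes. A share within a library does not depend on the scaling of libraries. Its difference was 10.02 percentage points, with an exact two-sided permutation p of 0.333, the smallest that 2 against 2 libraries can give.

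Hexokinases, which phosphorylate glucose on entry, included the genes with the largest and the smallest log2 fold change of the set with TMM, *Hk3* and *Hk2*. *Hk3* (ENSMUSG00000025877, chromosome 13, 55005985 to 55021385), a hexokinase found mainly in myeloid cells, had 464 and 367 counts in M7 and M8 and 3342 and 1956 in M9 and M10, or 16.9, 14.9, 162 and 107 CPM. Both libraries labelled SYK KO were far above both labelled SYK WT. The log2 fold change was 3.08 (SE 0.247, adjusted p = 0.000834), an 8.44-fold difference, and dropping single libraries kept it between 2.65 and 3.36. The 10 macrophage markers moved alongside by a median of 2.82 on the log2 scale, and the 6 pan-leukocyte markers by a median of 3.57. Scaled to those lists, the log2 fold change of *Hk3* was 0.30 (adjusted p = 0.583) and -0.59 (adjusted p = 0.129).

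*Hk1* (ENSMUSG00000037012, chromosome 10, 62268855 to 62379908), the broadly expressed hexokinase, measured 81.5 and 90.6 CPM in M7 and M8 and 145 and 131 CPM in M9 and M10. It was higher without overlap, by a log2 fold change of 0.68 (SE 0.157, adjusted p = 0.0172), but by 0.15 with library size as the scale (adjusted p = 0.532) and lower under both marker scalings. *Hk2* (ENSMUSG00000000628, chromosome 6, 82725025 to 82774454), the inducible hexokinase of muscle, tumors and activated immune cells, measured 66.9 and 70.2 CPM in M7 and M8 and 91.3 and 84.2 CPM in M9 and M10. Its groups did not overlap, yet its log2 fold change of 0.36 did not pass (SE 0.147, adjusted p = 0.0995). In CPM of total counts, without TMM, its order was turned, with 81.8 and 83.1 in M7 and M8 against 79.9 and 66.2 in M9 and M10.

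The makeup of the hexokinase counts differed between the genotypes whatever the scaling. *Hk3* took 10.2% of the summed *Hk1*, *Hk2* and *Hk3* counts in M7 (95% Wilson interval 9.38% to 11.1%) and 8.50% in M8 (7.71% to 9.37%), against 40.7% in M9 (39.7% to 41.8%) and 33.1% in M10 (31.9% to 34.3%). *Hk2* took 40.5% and 39.9% in M7 and M8 against 22.9% and 26.1% in M9 and M10. *Hk1* took 49.3% and 51.6% against 36.4% and 40.8%. The difference was 27.5 percentage points for *Hk3* and -15.7 for *Hk2*, each with an exact two-sided permutation p of 0.333, the smallest possible. Divided by summed exon length, which is 8532 bases for *Hk1*, 5969 for *Hk2* and 3682 for *Hk3*, *Hk3* took 18.1% and 15.3% of the hexokinase signal in M7 and M8 and 57.7% and 49.5% in M9 and M10. *Hk3* was thus the lowest hexokinase per kb in both libraries labelled SYK WT and the highest in both labelled SYK KO, and the same order at the bottom and top held when counts were divided by the longest coding transcript.

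**Figure D2:**
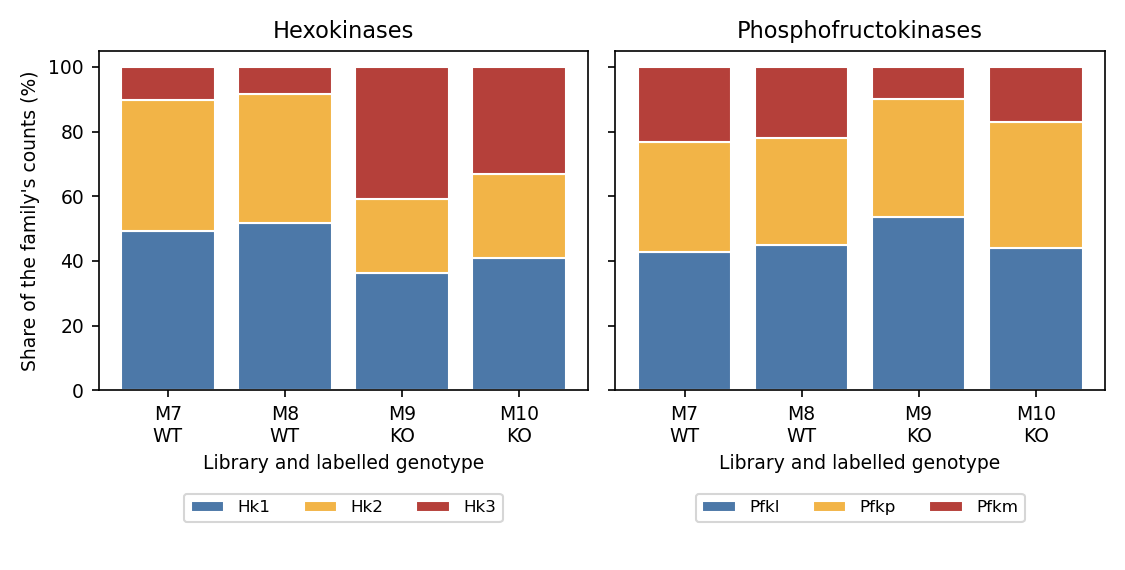
Share (%) of each gene in the summed counts of *Hk1*, *Hk2* and *Hk3* (left) and of *Pfkl*, *Pfkp* and *Pfkm* (right), 1 stacked bar per library. *Hk3* took 8.50% to 10.2% in the libraries labelled SYK WT and 33.1% to 40.7% in those labelled SYK KO, while the *Pfkp* share moved from 33.1% to 34.0% to 36.6% to 39.1%.

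Phosphofructokinase makes fructose 1,6-bisphosphate in the committing step. *Pfkl* (ENSMUSG00000020277, chromosome 10, 77986947 to 78010083), the liver-type subunit, measured 167 and 180 CPM in M7 and M8 and 282 and 179 CPM in M9 and M10. M10 lay between M7 and M8, and the log2 fold change of 0.41 did not pass (SE 0.240, 95% interval from -0.17 to 0.99, adjusted p = 0.219). *Pfkp* (ENSMUSG00000021196, chromosome 13, 6579768 to 6648777), the platelet-type subunit, measured 133 CPM in each of M7 and M8 and 193 and 160 CPM in M9 and M10. Its groups did not overlap, and its log2 fold change of 0.41 did not pass either (SE 0.168, adjusted p = 0.0979). With library size as the scale both values were below 0, at -0.11 for *Pfkl* and -0.12 for *Pfkp*. The muscle-type subunit *Pfkm*, which is not among the 10 genes, went the other way, from 91.1 and 88.5 CPM to 52.2 and 69.1 CPM (log2 fold change -0.57, SE 0.18, adjusted p = 0.0496). Within the summed counts of the 3 subunits, *Pfkm* took 23.3% and 22.1% in M7 and M8 against 9.92% in M9 and 17.0% in M10, and *Pfkp* took 34.0% and 33.1% against 36.6% and 39.1%. The *Pfkp* difference of 4.37 percentage points had an exact two-sided permutation p of 0.333, the smallest possible.

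The enzymes from aldolase onward were the most abundant of the set. *Aldoa* (ENSMUSG00000030695, chromosome 7, 126795234 to 126800751), which splits fructose 1,6-bisphosphate, measured 1023 and 1009 CPM in M7 and M8 and 2682 and 1919 CPM in M9 and M10. The groups were well apart, and the log2 fold change of 1.18 passed (SE 0.258, adjusted p = 0.0145). The second identifier named *Aldoa* (ENSMUSG00000114515, chromosome 7, 126800790 to 126809108) had 28 and 29 counts in M7 and M8 and 10 and 22 in M9 and M10, with no detectable difference (log2 fold change -0.39, adjusted p = 0.681). *Aldoa* took 98.8% to 99.4% of the counts of the 3 aldolases in every library.

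*Ldha* (ENSMUSG00000063229, chromosome 7, 46841475 to 46855627), the lactate dehydrogenase subunit that favours lactate formation, measured 809 and 780 CPM in M7 and M8 and 1898 and 1401 CPM in M9 and M10. It was higher by a log2 fold change of 1.05 (SE 0.241, adjusted p = 0.0167), and it took 96.5% to 98.8% of the counts of *Ldha*, *Ldhb* and *Ldhc*. *Pgk1* (ENSMUSG00000062070, chromosome X, 106187100 to 106203699), the first ATP-yielding enzyme of the pathway, measured 829 and 842 CPM in M7 and M8 and 1758 and 1268 CPM in M9 and M10. It was higher by 0.86 (SE 0.243, adjusted p = 0.0332). *Aldoa*, *Ldha* and *Pgk1* kept their direction with library size as the scale (0.66, 0.53 and 0.34) but then did not pass, and they were lower under both marker scalings.

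*Pkm* (ENSMUSG00000032294, chromosome 9, 59656368 to 59679375), pyruvate kinase, had the highest CPM of the set, at 1917 and 1965 in M7 and M8 and 3485 and 2713 in M9 and M10. Its groups did not overlap, but its log2 fold change of 0.68 did not pass in edgeR (SE 0.255, adjusted p = 0.0783), while DESeq2's Wald test gave an adjusted p of 0.0142. Counts per gene do not show which of its alternative exons, PKM1 or PKM2, was used. *Gm49759* (chromosome 9, 59672814 to 59676700) is an unverified transcript model inside *Pkm* on the same strand. It held counts equal to 7.03% and 10.1% of those of *Pkm* in M7 and M8 but 0.63% and 0.89% in M9 and M10. Whether this came from the assignment of reads or from the transcripts themselves was not tested. Processed copies of *Aldoa*, *Pgk1* and *Ldha* whose symbols begin with that of the gene held at most 7 counts in a library. Copies under other names were not looked up.

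Ratios within a library are free of the scaling between libraries, and by this measure the differences of the genes were unequal. Counts relative to *Pkm* were lower in M7 and M8 than in M9 and M10 for *Hk3* (0.00882 and 0.00760 against 0.0466 and 0.0393), *Aldoa* (0.534 and 0.513 against 0.770 and 0.707), *Ldha* (0.422 and 0.397 against 0.545 and 0.516) and *Pgk1* (0.432 and 0.429 against 0.504 and 0.467). They were lower in M9 and M10 for *Hk2* (0.0349 and 0.0357 against 0.0262 and 0.0310), *Pfkp* (0.0693 and 0.0675 against 0.0553 and 0.0588) and *Pfkl* (0.0872 and 0.0915 against 0.0808 and 0.0660). The ratios of *Hk1* and *Slc2a1* overlapped between the genotypes. The log2 differences were 2.38 for *Hk3*, 0.50 for *Aldoa*, 0.37 for *Ldha* and 0.17 for *Pgk1*, and -0.31, -0.26 and -0.29 for *Hk2*, *Pfkp* and *Pfkl*. A lack of overlap in 7 of 9 ratios has to be read against the 77.6% of all genes tested whose ratio to *Pkm* did not overlap. When the counts of *Gm49759* were added to those of *Pkm*, an alternative added once the values were known, the same 7 ratios did not overlap, in the same directions, with log2 differences of 0.28 for *Pgk1* and -0.20, -0.15 and -0.18 for *Hk2*, *Pfkp* and *Pfkl*.

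**Figure D3:**
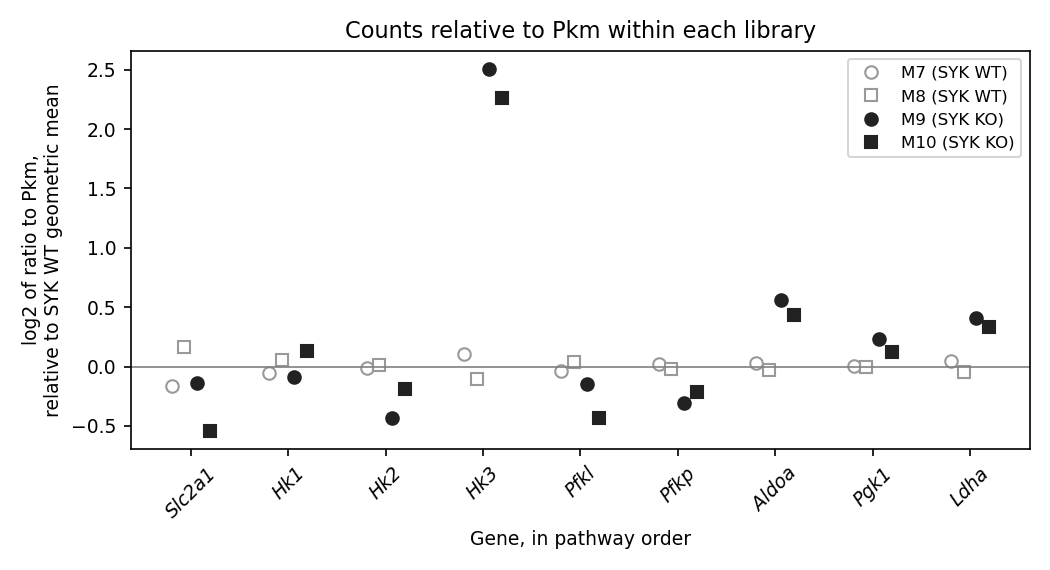
Counts of each gene divided by the *Pkm* counts of the same library, as log2 relative to the geometric mean of the libraries labelled SYK WT, 1 point per library. *Hk3* lay 2.38 higher on average in the libraries labelled SYK KO, *Aldoa* 0.50 and *Ldha* 0.37, whereas *Hk2*, *Pfkl* and *Pfkp* lay below both libraries labelled SYK WT and *Hk1* and *Slc2a1* overlapped.

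Levels of different genes were compared as CPM per kb of summed exon length. *Aldoa* (346 to 921), *Pgk1* (369 to 783), *Pkm* (383 to 697) and *Ldha* (236 to 573) were above the other 6 genes in every library. *Slc2a1* (72.7 to 135) came next. *Hk3* was the lowest of the 10 genes in M7 and M8 (4.59 and 4.06) and stood above *Pfkl* in M9 (44.1 against 42.2) and M10 (28.9 against 26.8), while *Hk1*, *Hk2* and *Pfkp* lay between 9.55 and 17.0 in all libraries. The order at the top turned between genotypes: per kb, *Pkm* was above *Aldoa* in M7 (383 against 351) and M8 (393 against 346), and below it in M9 (697 against 921) and M10 (543 against 659). On the longest coding transcript the same turn was seen, with *Pkm* at 788 and 808 against *Aldoa* at 660 and 651 in M7 and M8, and at 1433 and 1116 against 1731 and 1239 in M9 and M10. The order of *Pgk1* and *Pkm*, of *Hk3* and *Pfkl*, and of *Hk1*, *Hk2* and *Pfkp* depended on the length used. On the longest coding transcript, *Hk3* was below *Pfkl* in M9 (50.4 against 75.5) and M10 (33.1 against 48.0). On the longest coding transcript, *Pkm* was above *Pgk1* in every library (788, 808, 1433 and 1116 against 454, 462, 963 and 695), and *Pfkp* (32.0 to 46.5) was above *Hk2* (12.1 to 16.6) without overlap.

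M10 was below M9 for every one of the 10 genes, at 0.588 times its CPM for *Slc2a1* and 0.922 times for *Hk2*, whereas the median of that ratio over all genes tested was 0.995. M7 and M8 differed less, from 0.883 for *Hk3* to 1.29 for *Slc2a1* as the ratio of M8 to M7. M10 also held the largest share of mitochondrial counts, and the part of that share in these values was not tested. Summed over the 10 genes, the share of all counts was 0.647% and 0.641% in M7 and M8 and 0.978% and 0.648% in M9 and M10. Without mitochondrial and rRNA-like genes the shares were 0.676%, 0.705%, 1.08% and 0.858%, and then both libraries labelled SYK KO were above both labelled SYK WT. In CPM of total counts, the groups remained apart for *Hk3*, *Aldoa* and *Ldha*, which were higher, and for *Hk2*, which was lower. The share of all genes tested that lay apart on this scale is not given here, so these genes cannot be set against it. With TMM, the shares were 38% above and 37.2% below. With library size as the scale, the median log2 fold change of all genes tested was -0.52.

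**Figure D4:**
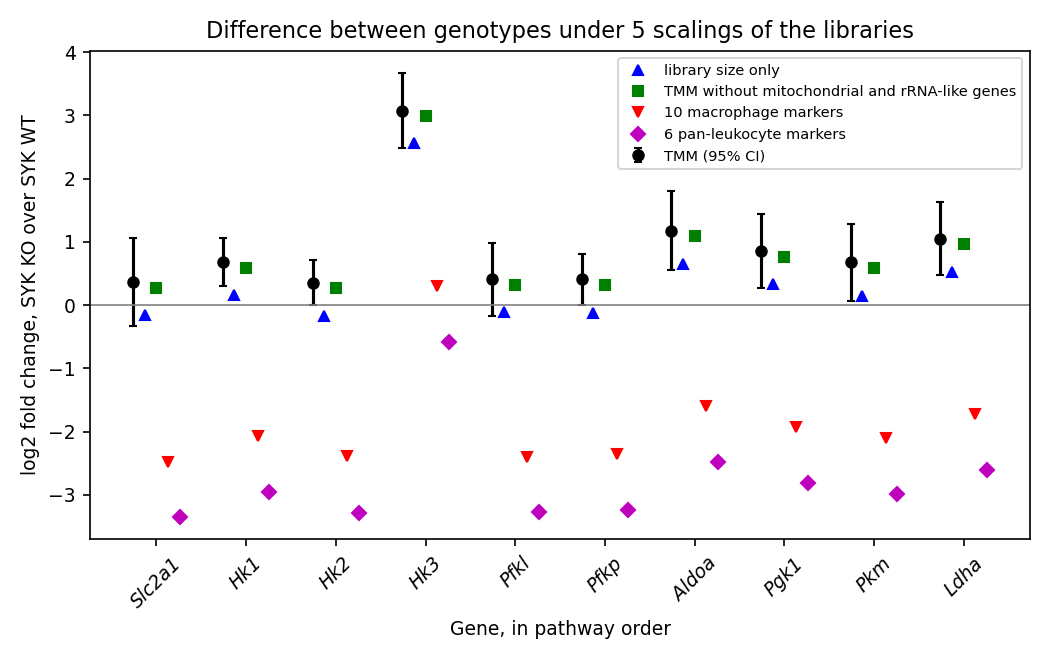
Log2 fold change of the libraries labelled SYK KO over those labelled SYK WT for each gene under TMM (black, with 95% interval), library size only, TMM without mitochondrial and rRNA-like genes, and scaling to 10 macrophage or 6 pan-leukocyte markers. The median of the 10 genes was 0.68 with TMM, 0.15 with library size, -2.09 with the macrophage markers and -2.97 with the pan-leukocyte markers, and *Hk3* was the highest gene under each.

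The remaining steps of glycolysis gave calls in both directions. Over all genes tested, 22.7% were called higher and 16.7% lower, and the counts here have to be read against these shares. Of 21 other glycolytic enzymes 14 could be tested, of which 3 were higher, 3 lower and 8 did not pass, with a median log2 fold change of 0.32. Those higher were *Gpi1*, which interconverts the hexose phosphates (376 and 457 against 1185 and 1010 CPM, a log2 fold change of 1.4, adjusted p = 0.00479), *Tpi1*, the triose phosphate isomerase (442 and 439 against 1035 and 754 CPM, 1.02, adjusted p = 0.0147), and *Gapdh*, the NAD+-dependent dehydrogenase (1974 and 1984 against 4543 and 3393 CPM, adjusted p = 0.0277). They lie on either side of *Aldoa* and before *Pgk1* in the pathway, and like 9 of the 10 genes they were lower under both marker scalings. *Pgam1* (0.59, adjusted p = 0.0937) and *Eno1* (0.53, adjusted p = 0.106), the next enzymes after *Pgk1*, did not pass. Lower were *Eno2*, the neuronal enolase (95.2 and 129 against 16.4 and 16.8 CPM, -2.75, adjusted p = 0.000729), *Adpgk*, an ADP-dependent glucokinase (-0.72, adjusted p = 0.0137), and *Pfkm*. *Tpi1*, *Gapdh*, *Adpgk* and *Pfkm* did not pass without M7 or without M8. *Adpgk* and *Pfkm* fall outside the rule for named genes and are named to complete the count.

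**Figure D5:**
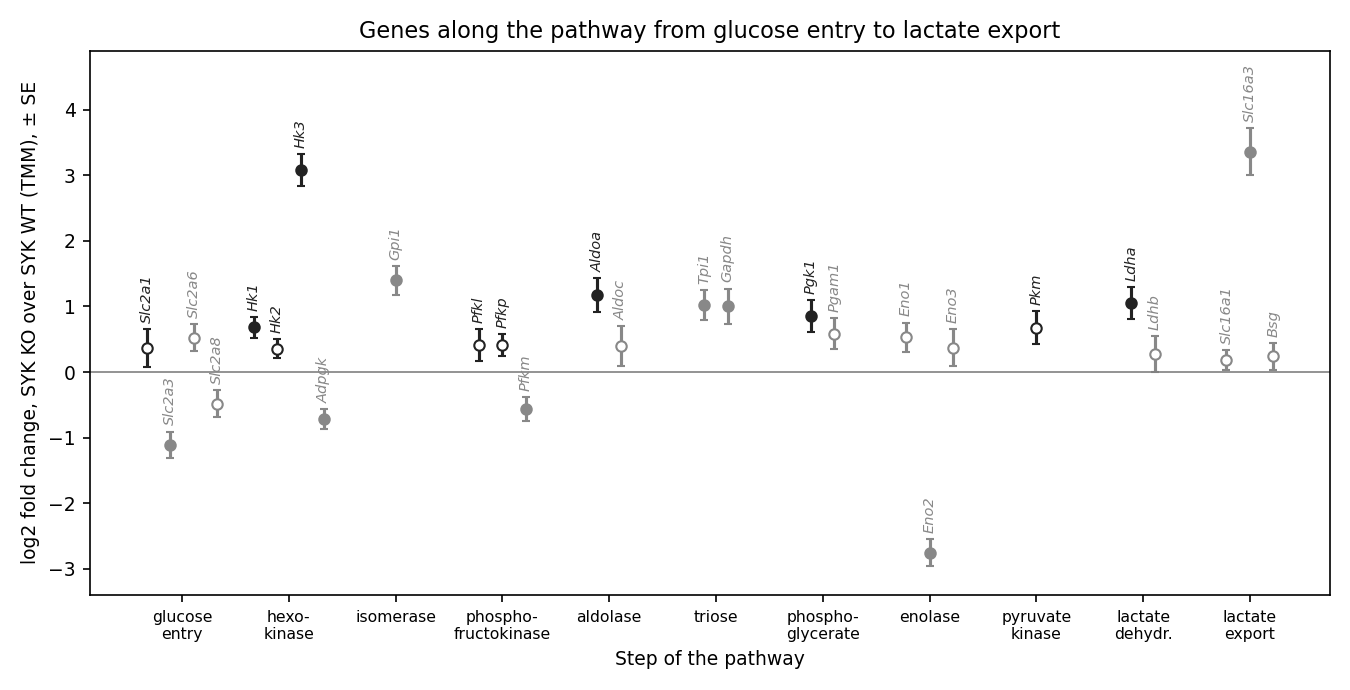
Log2 fold change with SE (TMM scaling, libraries labelled SYK KO over SYK WT) along the pathway from glucose entry to lactate export, black for the 10 genes and grey for other genes, filled where the edgeR adjusted p was under 0.05. *Hk3* (3.08) and the lactate exporter *Slc16a3* (3.36) were the highest and *Eno2* (-2.75) the lowest; scaled to macrophage or pan-leukocyte markers, every higher call was lost, and the glycolytic enzymes other than *Hk3* were lower.

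Of 7 glucose transporters tested besides *Slc2a1*, 0 were higher, 3 lower and 4 did not pass. For this count and that of the regulators below, the shares over all genes tested were 22.7% higher and 16.7% lower. Lower were *Slc2a3*, the myo-inositol transporter *Slc2a13* (-1.09, adjusted p = 0.0464) and the insulin-responsive *Slc2a4*, which had 34 and 20 counts against 3 and 3 (adjusted p = 0.0329 in edgeR and 0.0795 in DESeq2's Wald test). The 12 regulators of glycolysis tested gave 0 higher, 4 lower and 8 not passed. Lower were *Bpgm*, the red cell bisphosphoglycerate mutase (-1.89, adjusted p = 0.00294), *Pfkfb2*, which makes fructose 2,6-bisphosphate (-1.65, adjusted p = 0.00814), *Pdk1*, which inhibits pyruvate dehydrogenase (-0.97, adjusted p = 0.0106), and the opposing phosphatase *Pdp1* (-0.86, adjusted p = 0.0179). *Slc2a3*, *Slc2a4*, *Slc2a13*, *Pfkfb2*, *Pdk1* and *Pdp1* did not pass without M8, and *Slc2a4* and *Slc2a13* did not pass without M7. *Bpgm* was lower beside the erythroid markers given above, whose part was not tested. *Txnip*, which restrains glucose uptake, and *Pfkfb3*, the inducible counterpart of *Pfkfb2*, had log2 fold changes of 0.16 and 0.03 that did not pass (adjusted p = 0.459 and 0.914).

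Downstream of *Ldha*, 4 of 6 transporters of lactate and pyruvate were higher and 0 lower with TMM scaling. The shares over all genes tested were 22.7% and 16.7%. *Slc16a3*, which encodes the lactate exporter MCT4, measured 30.0 and 24.5 CPM in M7 and M8 and 374 and 188 CPM in M9 and M10, a log2 fold change of 3.36 (SE 0.36, adjusted p = 0.00159). *Slc16a7* (2.26, adjusted p = 0.0256) and the mitochondrial pyruvate carrier subunits *Mpc1* (1.09, adjusted p = 0.0186) and *Mpc2* (0.94, adjusted p = 0.00646) also passed, while *Slc16a1* (0.18, adjusted p = 0.374) and its chaperone *Bsg* (0.24, adjusted p = 0.392) did not. The value of *Slc16a3* was 2.69 without M9, and that of *Slc16a7* was 1.43 without M9 and 3.17 without M8. With library size as the scale *Slc16a7* (1.76, adjusted p = 0.0579), *Mpc1* and *Mpc2* did not pass, nor did *Mpc1* and *Mpc2* without M8. Scaled to the pan-leukocyte markers, all 6 had log2 fold changes below 0.

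The pentose phosphate pathway, which branches off after the hexokinases, had 7 of 8 tested genes higher and 0 lower with TMM scaling, led by *Taldo1* (1.90, adjusted p = 0.00209), *Tkt* (1.44, adjusted p = 0.0021), *G6pdx* (1.14, adjusted p = 0.00512) and *Pgd* (1.05, adjusted p = 0.00528). *G6pdx* and *Pgd* did not pass without M8 or with library size as the scale. These 4 were below 0 under both marker scalings. Pyruvate dehydrogenase and the tricarboxylic acid cycle had 12 of 23 higher and 0 lower. Glycogen metabolism had 5 of 15 higher and 2 lower, gluconeogenesis 1 of 3 higher and 1 lower, and the *Myc* family 3 of 4 higher and 0 lower. All counts of this paragraph are for TMM scaling and stand beside 22.7% called higher and 16.7% lower over all genes tested. Counts under other scalings are not given here for the lists after the pentose phosphate pathway. The median of the pyruvate dehydrogenase and tricarboxylic acid cycle list was 0.50 with TMM. Over all genes tested, the median was 0.02 with TMM, -0.52 with library size, -2.70 with the macrophage markers and -3.60 with the pan-leukocyte markers.

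The regulator by which the genes were chosen was not itself called. *Hif1a* measured 152 and 156 CPM in M7 and M8 and 200 and 150 CPM in M9 and M10, with overlapping groups and a log2 fold change of 0.18 (adjusted p = 0.489), and transcript counts do not measure the protein, which is controlled by its stability. Of 7 HIF subunits and oxygen sensors tested 0 were higher and 3 lower, namely *Arnt2* (-1.93, adjusted p = 0.027), *Epas1* (-1.22, adjusted p = 0.00294) and *Arnt* (-0.67, adjusted p = 0.017). *Arnt2* was at -2.95 without M9 and -1.36 without M10, and *Arnt2* and *Arnt* did not pass without M7 or without M8. Of 23 HIF targets outside glycolysis, 4 were higher, 8 lower and 11 did not pass, with a median log2 fold change of 0.09. For both lists, the shares over all genes tested were 22.7% higher and 16.7% lower. The 4 higher were *Hmox1*, heme oxygenase (2.81, adjusted p = 0.00493), *Adm*, adrenomedullin (1.61, adjusted p = 0.00794), the oxygen sensor *Egln3* (1.21, adjusted p = 0.00841), and the adenylate kinase *Ak4* (0.65, adjusted p = 0.0294), and all 4 were below 0 under both marker scalings. *Hmox1* was at 1.94 without M9, *Egln3* did not pass without M7, and *Ak4* did not pass without M7, M8 or M9. Among the 8 lower were *Car9*, a carbonic anhydrase (-2.35, adjusted p = 0.000898), and the collagen-modifying enzymes *Plod2* (-2.04, adjusted p = 0.00107) and *Loxl2* (-1.83, adjusted p = 0.00469). The 8 also included *Kdm3a* (-1.67), *P4ha2* (-1.16), *Car12* (-0.90) and *Ddit4* (-0.73). These genes were lower beside the fibroblast markers, whose part was not tested. *Adm*, *Egln3*, *Ak4*, *Kdm3a*, *P4ha2*, *Car12* and *Ddit4* were named after their values were seen.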

How the data were processed

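TAM libraries (polyA-selected; 2 labelled SYK WT, 2 labelled SYK KO) were analysed. The labels give a NovaSeq instrument and read pairs of 150 bases, and the published methods a HiSeq instrument, single reads and triplicates. The authors ran a bcbio pipeline that aligned reads to mm10 by STAR and estimated abundance by Salmon (STAR 2.6.1d, Salmon 1.4.0, SAMtools 1.9, Picard 2.26 and MultiQC 1.11 in the submitters' processing notes). The deposited values are raw integer counts for Ensembl genes. Salmon can split reads between like sequences, and how its estimates became integers is not given in the sources used here. GENCODE M21 (GRCm38) matched 54495 of 54532 identifiers.

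In R 4.3.3, genes passing filterByExpr were compared with edgeR 4.0.16 (TMM factors 1.22, 1.19, 0.876 and 0.787 for M7 to M10; glmQLFit, glmQLFTest; Benjamini-Hochberg over 16451 genes, threshold 0.05). The SE was the log2 fold change divided by the root of F. The study's tool, DESeq2 (1.42.0, Wald test without shrinkage), was an alternative, as were other scalings, filters and thresholds and leaving out each library. Depth was 20755886 to 23518045 counts per library. Replicates differed by far more than sampling noise (chi-square per degree of freedom 50.6 for M7 and M8, 168 for M9 and M10). Single values were compared by exact permutation, for which 2 against 2 libraries allow no p below 0.333. The fit was tested on simulated data. The members and gene lists were chosen with earlier results of these data known. Named genes were the 10 members and, per list, up to 4 called genes with the largest change and up to 2 abundant genes that did not pass. They were given for 7 of the 11 pathway lists, along with *Gapdh*, *Gpi1*, *Tpi1*, *Pgam1*, *Eno1*, *Hif1a* and *Epas1*. Some genes of these lists that did not pass have their log2 fold changes given only here. They were *Slc2a6* (0.52), *Slc2a8* (-0.48), *H6pd* (-0.17), *Egln2* (0.23), *Ndrg1* (-0.58) and *Bnip3* (0.05). The list of HIF targets was analysed without 1 gene, which is not reported here. Promoter windows came from RefSeq (GRCm38.p6).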

Additional observations from a re-analysis of the deposited data

How the results depend on the processing

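The zero of every fold change came from the scaling between libraries. The median log2 fold change of all genes was 0.02 with TMM, -0.52 with library size, -2.70 with the macrophage markers and -3.60 with the pan-leukocyte markers, and the share of higher among all calls was 57.6%, 23.7%, 0.949% and 0.359%. Of the 10 genes, 5 were called higher and 0 lower with TMM, with DESeq2 size factors, without mitochondrial and rRNA-like genes and under both filters on low counts. The number higher was 6 with DESeq2's Wald test, 1 with library size, 0 with either marker scaling (9 lower with each), 8 at an adjusted p under 0.1 and 3 when a change of at least 1 on the log2 scale was also required, and it ran from 1 to 10 as single libraries were dropped. A genotype left with 1 library was assumed to vary like the other. Over all genes, 3729 were higher and 2747 lower with TMM, 1677 and 5411 with library size, 136 and 14200 with the macrophage markers, and 55 and 15270 with the pan-leukocyte markers. With a fold limit 2426 were higher, and with each library left out 1478 to 5010 were higher and 807 to 4745 lower. The *Hk2* and *Hk3* shares of hexokinase counts differed by -22.3 and 36.9 percentage points per summed exon length, by -15.3 and 32.7 per longest coding transcript, a length chosen after the data were seen, and by -17.3 to -14.1 and 23.7 to 31.4 with each library left out. The *Pfkp* share differed by 3.10 to 5.63 points in the same way.

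Log2 fold changes that were above 0 with TMM took these values when scaled to the macrophage and the pan-leukocyte markers: *Slc2a1* -2.48 and -3.35, *Hk1* -2.07 and -2.96, *Hk2* -2.39 and -3.28, *Pfkl* -2.40 and -3.28, *Pfkp* -2.35 and -3.24, *Aldoa* -1.60 and -2.48, *Pgk1* -1.93 and -2.81, *Pkm* -2.10 and -2.98, *Ldha* -1.72 and -2.60, *Gapdh* -1.77 and -2.66, *Gpi1* -1.38 and -2.26, *Tpi1* -1.76 and -2.64, *Pgam1* -2.19 and -3.08, *Eno1* -2.22 and -3.11, *Hif1a* -2.60 and -3.48, *Slc16a7* -0.72 and -1.55, *Mpc1* -1.70 and -2.58, *Mpc2* -1.77 and -2.67, *Taldo1* -0.87 and -1.75, *Tkt* -1.28 and -2.18, *G6pdx* -1.61 and -2.50, *Pgd* -1.70 and -2.59, *Hmox1* -0.079 and -0.93, *Adm* -1.22 and -2.09, *Egln3* -1.60 and -2.47, *Ak4* -2.08 and -2.98, *Bsg* -2.53 and -3.42, *Slc16a1* -2.54 and -3.44, *Txnip* -2.58 and -3.47 and *Pfkfb3* -2.72 and -3.61. Scaled to the pan-leukocyte markers alone, the sign turned for *Hk3* (-0.59) and *Slc16a3* (-0.33). Library size as the scale turned *Slc2a1* (-0.15), *Hk2* (-0.17), *Pfkl* (-0.11), *Pfkp* (-0.12), *Eno1* (-0.0015), *Hif1a* (-0.35), *Bsg* (-0.29), *Slc16a1* (-0.35), *Txnip* (-0.37) and *Pfkfb3* (-0.50). Leaving out M9 turned *Slc2a1* (-0.16), *Pfkl* (-0.043), *Hif1a* (-0.13) and *Pfkfb3* (-0.23). Without M10, in contrast, *Slc2a1* was at 0.71, *Pfkl* at 0.71, *Hif1a* at 0.38 and *Pfkfb3* at 0.20. *Pfkfb3*, near 0 with TMM, was also below 0 with DESeq2 size factors (-0.0074), without mitochondrial and rRNA-like genes (-0.058), with at least 10 counts in every library (-0.040), in DESeq2's Wald test (-0.014) and without M8 (-0.05). *Slc2a4* had under 10 counts in M9 and M10 and has no value under that filter. The cause of these shifts was not tested. No paired analysis was possible because the libraries of the genotypes share no replicate numbers. Depth was not close to its floor for any of the 10 genes, of which *Hk3* in M8 had the fewest counts (367).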
